A study of Arabidopsis thaliana with 16 samples.

Results

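The comparison described here set triploid seeds whose father lacked functional *PHE1* and *PHE2* against normal diploid seeds, and asked what paternal genome excess changes in the seed transcriptome when the pollen brings no working copy of either gene. All 19792 of the 27206 genes in the expression table with a mean of at least 0.5 RPKM in either cross were included. RPKM is a level per length, the reads per kb of transcript and per M mapped reads. The triploid seeds, named *phe1 phe2 osd1*, came from Ler *pi-1* mothers pollinated by *phe1 phe2 osd1-3* plants of the Col accession. The diploid seeds, named wt, came from the same kind of mother pollinated by Col wild type. A cross with *osd1-3* pollen, named *osd1*, makes triploid seeds that keep the paternal *PHE1* and *PHE2*, and its values stand beside the others where they bear on a result. Seeds were harvested at 6 days after pollination (DAP), each cross had 2 biological replicates made from seeds of 20 siliques, and polyadenylated RNA was sequenced.

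Several features of these crosses limit what they model. The *pi-1* (*pistillata*) mutation makes the mother male sterile, so that all pollen comes from the donor. The *osd1* mutation omits the second meiotic division, so that the pollen carries an unreduced genome. *phe2* is a T-DNA insertion and *phe1* a premature stop codon made by CRISPR/Cas9. The mutations were carried by the father alone, so that the maternal alleles of *PHE1*, *PHE2* and *OSD1* stayed wild type. A stop codon changes the protein and need not remove the transcript, so that the *PHE1* level does not report how much functional protein was made.

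In the seeds of flowering plants, the endosperm nourishes the embryo and normally receives more maternal than paternal genomes. In Arabidopsis its nuclei first divide without walls and then cellularize. When the father contributes extra genomes, cellularization is delayed or fails and many seeds abort, a barrier called the triploid block. *PHERES1* (*PHE1*) encodes a type I MADS-box transcription factor of the endosperm, is expressed mainly from the paternal allele, and is overexpressed in such seeds, and *PHE2* is its close copy.

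Whole seeds were sequenced, so fewer cells of a type and less RNA per cell cannot be told apart. The table gives no read counts, and the spacing of low values put the depth at 16.0 to 18.0 M reads per library. Across genes, log2 values correlated at 0.973 between the *phe1 phe2 osd1* replicates and at 0.988 between the wt replicates. Pairs made of a *phe1 phe2 osd1* and a wt library correlated at 0.852 to 0.869, and pairs with 1 library of each triploid cross at 0.959 to 0.982.

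The targeted genes were measured first. *PHE1* (AT1G65330, TAIR10.1 chromosome 1, 24266257 to 24267336) stood at 49.0 and 49.1 RPKM in *phe1 phe2 osd1* seeds, 200.4 and 169 in *osd1* seeds, and 2.92 and 3.10 in wt seeds. The 3 crosses did not overlap, with *phe1 phe2 osd1* between the others. Its log2 fold change in *phe1 phe2 osd1* vs. wt was 3.82 (SE 0.13, limma adjusted p = 0.000153) and was called in each of 6 fits that left out 1 library. *PHE2* (AT1G65300, chromosome 1, 24254929 to 24255857) had 37.8 and 32.5 RPKM in *phe1 phe2 osd1* seeds, 81.8 and 90.1 in *osd1* seeds, and 3.08 and 2.98 in wt seeds. It followed the order of *PHE1*, and its log2 fold change against wt was 3.33 (SE 0.13, limma adjusted p = 0.000207). Both transcripts were thus more abundant in triploid seeds without a functional paternal copy than in diploid wt seeds. The genes are close copies, and because each read was kept at 1 place, reads could be exchanged between them, so that their separate levels are uncertain. *OSD1* (AT3G57860, chromosome 3, 21426285 to 21428340), a regulator of the meiotic and mitotic cell cycle, was at 0.861 and 1.03 RPKM in *phe1 phe2 osd1* seeds, 1.56 and 1.41 in *osd1* seeds, and 7.19 and 6.82 in wt seeds. The wt libraries lay above all 4 triploid libraries, and the log2 fold change in *phe1 phe2 osd1* vs. wt was -2.38 (SE 0.21, limma adjusted p = 0.00106).

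Differential expression was tested with limma on log2(RPKM + 0.5), with the *osd1* libraries in the fit to estimate the spread, and a gene was called at a Benjamini-Hochberg adjusted p under 0.05. The added 0.5 understates fold changes of genes with low values. In *phe1 phe2 osd1* seeds, 2444 genes were higher than in wt (12.3% of the 19792 tested) and 2526 were lower (12.8%). Together these 4970 genes made up 25.1% of those tested, and in each of them both libraries of one cross lay outside the range of the other. In *osd1* vs. wt, which shares the wt libraries, 2502 genes were higher (12.6%) and 2688 lower (13.6%). The median log2 fold change of all tested genes was 0.003, with quartiles of -0.36 and 0.39.

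The counts of higher and lower genes were close, but their sizes were not. Genes called at least 4 log2 units higher numbered 226, whereas 40 were at least 4 log2 units lower. At 1 log2 unit the counts were 1615 and 1587. Of the genes called higher, 104 were listed at 0 in both wt libraries, and 43 of those called lower were listed at 0 in both *phe1 phe2 osd1* libraries. Of the 1138 genes that entered the test only through *phe1 phe2 osd1*, 466 were called higher, and of the 675 that entered only through wt, 249 were called lower. Such genes had to be higher in the cross through which they entered, so their direction was fixed by the filter. Both *phe1 phe2 osd1* libraries lay above both wt libraries in 34.8% of tested genes and below them in 34.9%. The 226 genes that were highest against wt were short, with a median exon length of 622 bp against 1726 bp over all tested genes.

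**Figure D1:**
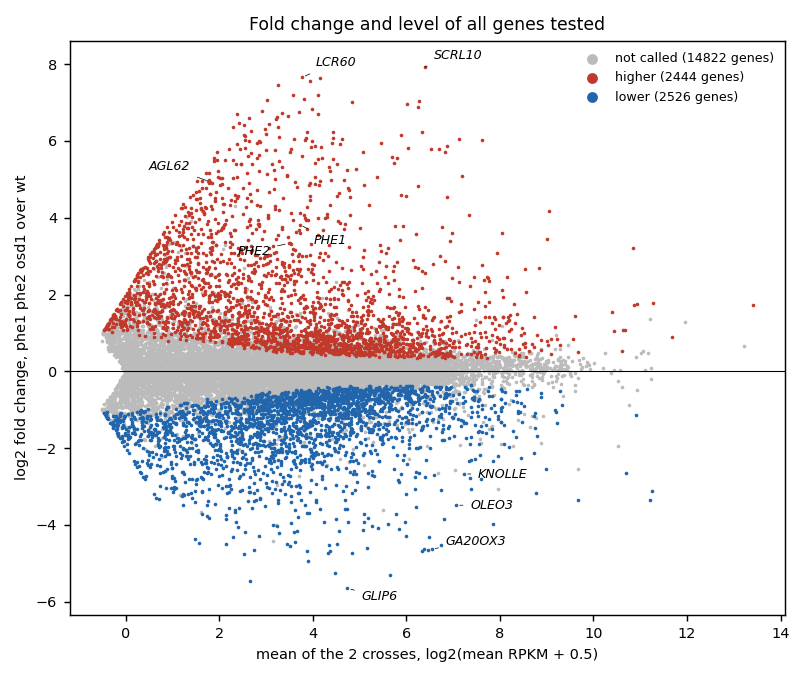
Log2 fold change in *phe1 phe2 osd1* vs. wt seeds (vertical axis) against mean expression of both crosses on a log2 scale (horizontal axis), 1 point per tested gene, with genes called higher (2444) and lower (2526) coloured. The points spread farther above 0 than below it, with 226 called genes at or above 4 and 40 at or below -4.

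The number of calls moved most when a wt library was left out. In the fit without wt replicate 1, 604 genes were called higher and 529 lower, and in the fit without wt replicate 2 the counts were 887 and 828. Without *phe1 phe2 osd1* replicate 1 they were 1500 and 1530, and without its replicate 2 they were 1401 and 1337. Without *osd1* replicate 1 they were 2952 and 3087, and without its replicate 2 they were 2954 and 3077. These fits leave 1 library in a cross, which is then assumed to vary like the others. No gene was called in the opposite direction in any of them. Where these fits end a call or change a count by more than 1.5 times, their values are given. The rank product, a test on the ranks of fold changes over the 4 pairs of libraries, called 1683 genes higher (8.5%) and 1816 lower (9.18%) at an unadjusted one-sided p under 0.05.

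The 8 genes with the largest rises included 4 annotated as small cysteine-rich or defensin-like proteins. *SCRL10* (AT4G15735), of the SCR-like cysteine-rich peptides, had 811 and 1914 RPKM in *phe1 phe2 osd1* seeds, 1795 and 596 in *osd1* seeds, and 3.80 and 5.58 in wt seeds. Its triploid libraries were all far above wt, with a log2 fold change of 7.93 (SE 0.60, limma adjusted p = 0.000728) in *phe1 phe2 osd1* vs. wt. *LCR60* (AT2G20208), a low-molecular-weight cysteine-rich protein, had 65.9 and 388 RPKM in *phe1 phe2 osd1* seeds, 175 and 58.6 in *osd1* seeds, and 0.136 and 0.501 in wt seeds. The groups were far apart, although replicates of a triploid cross differed several-fold, and the log2 fold change was 7.65 (SE 0.88, limma adjusted p = 0.0025). *GH9B9* (AT2G44540), of the glycosyl hydrolase family 9 that includes cellulases, had 163 and 251 RPKM in *phe1 phe2 osd1* seeds, 433 and 63.3 in *osd1* seeds, and 0.269 and 1.03 in wt seeds. Again every triploid library was far above both wt libraries, with a log2 fold change of 7.55. *AT1G61688*, annotated as defensin-like, was listed at 0 in both wt libraries and had 21.6 and 345 RPKM in *phe1 phe2 osd1* seeds. The other 4 genes of the 8 highest were *AT2G20465*, *AT1G56415*, *AT3G02670* and *AT2G25185*, with log2 fold changes of 7.09 to 7.64. Leaving out wt replicate 1 gave a limma adjusted p of 0.0526 for *LCR60*, 0.0517 for *GH9B9*, 0.0621 for *AT2G20465*, 0.0747 for *AT1G56415* and 0.114 for *AT1G61688*, which also lost its call without wt replicate 2. *SCRL10*, *AT3G02670* and *AT2G25185* kept their calls in all 6 fits that left out a library.

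Replicates of the triploid crosses differed more in the genes with large changes than over all genes. Among the 226 genes at least 4 log2 units higher, replicate 2 exceeded replicate 1 in *phe1 phe2 osd1* in 152, and replicate 1 exceeded replicate 2 in *osd1* in 215. The median difference between the *phe1 phe2 osd1* replicates was 0.75 log2 units in these genes, 1.09 in the 40 genes at least 4 log2 units lower and 0.22 over all tested genes. Between the *osd1* replicates it was 1.04 in the 226 genes, 0.69 in the 40 and 0.25 over all tested genes, and between the wt replicates 0.15 over all tested genes.

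The list of small secreted cysteine-rich proteins, which act in plants as signals between cells and in defence, held 66 tested genes. Of these, 40 were higher (60.6%, against 12.3% of all tested genes), 7 were lower (10.6%, against 12.8%) and 19 were not called. The median log2 fold change was 2.51 against 0.003 for all tested genes. The list named 109 genes, of which 34 were at 0 in all 4 libraries compared. The filter was passed by 20 only through *phe1 phe2 osd1* and by 4 only through wt, which fixed their direction. *LCR35* (AT2G22121) was at 61.9 and 92.4 RPKM in *phe1 phe2 osd1* seeds, against 0 and 0.478 in wt seeds, with a log2 fold change of 6.77. *LCR61* (AT4G30064) had 17.6 and 246 RPKM in *phe1 phe2 osd1* seeds and was at 0 in both wt libraries. Members that fell included *LCR39*, *LCR62*, *LCR27* and *LCR16*, although the share of lower genes was near that of all tested genes. *LCR39* (AT3G23167) was at 1.73 and 2.57 RPKM in *phe1 phe2 osd1* seeds and at 65.2 and 48.9 in wt seeds, without overlap (log2 fold change -4.44, SE 0.41, limma adjusted p = 0.00131). *LCR27* (AT4G29300) had 6.06 and 2.86 RPKM in *phe1 phe2 osd1* seeds, against 78.9 and 64.1 in wt seeds, and its log2 fold change was -3.93. The list had 27 members higher without wt replicate 1 and 31 without wt replicate 2, and in these fits *LCR61* and *LCR16* were not called.

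Gene families were also grouped by their annotated product names, after the values had been seen, so their counts are descriptions. They are to be read against the 12.3% of all tested genes called higher and the 12.8% called lower. The counts and medians rest in part on the filter, which fixed the direction of members that passed it through 1 cross only. How many members of each family did so was not counted. Defensin-like proteins had 36 of 57 tested members higher (63.2%) and 2 lower, with a median log2 fold change of 3.25. Relatives of self-incompatibility proteins had 26 of 39 higher and 0 lower, and ECA1-like gametogenesis proteins 13 of 26 higher and 4 lower. Invertase and pectin methylesterase inhibitors, which restrain the enzymes that cleave sucrose or loosen pectin, had 23 of 62 higher and 5 lower. Among them *AT5G46960* was at 1251 and 1023 RPKM in *phe1 phe2 osd1* seeds, 2112 and 1264 in *osd1* seeds, and 14.5 and 19.1 in wt seeds. The triploid libraries were all far above wt (log2 fold change 6.04, limma adjusted p = 0.000244). F-box proteins, which select targets for ubiquitin ligases, had 117 of 325 higher and 17 lower, and proteins with a DUF239 domain 23 of 37 higher and 2 lower. The other families counted leaned the other way or to neither side, with 4 of 39 MATE efflux transporters higher and 12 lower (30.8%), 9 of 53 GDSL proteins higher and 13 lower (24.5%), and 27 of 124 cytochromes P450 higher (21.8%) and 29 lower (23.4%). In the fit without wt replicate 1, the members higher numbered 24 for defensin-like, 6 for self-incompatibility, 8 for inhibitor, 41 for F-box and 11 for DUF239 proteins. In the fit without wt replicate 2 they numbered 27 for defensin-like, 11 for self-incompatibility, 12 for inhibitor, 48 for F-box and 12 for DUF239 proteins, and 69 F-box genes were higher without *phe1 phe2 osd1* replicate 1. In these 5 families and ECA1-like proteins the members lower numbered 0 to 9 in the fits without a wt or a *phe1 phe2 osd1* library, and 11 inhibitor genes were lower without either *osd1* library. Without wt replicate 1, 1 MATE gene was higher and 6 lower, 3 GDSL genes were higher and 5 lower, and 6 P450 genes were higher and 9 lower. With wt replicate 2 left out these counts were 1 and 8 for MATE, 4 and 6 for GDSL, and 10 and 13 for P450 genes. Without *phe1 phe2 osd1* replicate 2, 7 MATE genes were lower and 14 P450 genes higher, and 17 P450 genes were higher without its replicate 1. Copies in tandem are frequent in these families, and reads can be exchanged between near-identical members.

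Type I MADS-box genes are the family of *PHE1*. The list named 60 genes, of which 51 were found in the table, 27 were tested and 11 were at 0 in all 4 libraries. Of the 27, 17 were higher (63.0%, against 12.3% of all tested genes), 0 were lower (against 12.8%) and 10 were not called, with a median log2 fold change of 2.88. This count and median rest in part on the filter, since 16 of the 27 passed it only through *phe1 phe2 osd1* and could not be lower there, and 9 of these were called higher. Of the 11 that passed in both crosses, 8 were higher. *AGL62* (AT5G60440), which keeps the endosperm from cellularizing too early, had 11.8 and 27.3 RPKM in *phe1 phe2 osd1* seeds, 20.8 and 10.4 in *osd1* seeds, and 0.108 and 0.1 in wt seeds. The wt libraries were near 0 and the triploid libraries of both crosses overlapped each other (log2 fold change vs. wt 4.94, SE 0.47, limma adjusted p = 0.00136). *AGL23* (AT1G65360), a type I gene required for the female gametophyte and embryo, was at 24.0 and 21.2 RPKM in *phe1 phe2 osd1* seeds, 22.2 and 15.3 in *osd1* seeds, and 0 and 0.499 in wt seeds. It stood apart from wt in the same way, with a log2 fold change of 5.03 (SE 0.36, limma adjusted p = 0.000658). *AGL36* (AT5G26650), an imprinted gene expressed from the maternal allele, had 5.95 and 20.2 RPKM in *phe1 phe2 osd1* seeds and was at 0 in both wt libraries. *AGL102* and *AGL91* were higher with similar values in both triploid crosses, *AGL102* at 54.5 and 56.8 RPKM in *phe1 phe2 osd1* seeds, 44.9 and 43.2 in *osd1* seeds, and 3.42 and 2.96 in wt seeds.

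The members with the highest levels in wt seeds were not called. *AGL87* was at 111 and 94.6 RPKM in *phe1 phe2 osd1* seeds, against 89.8 and 90.5 in wt seeds, and *AGL26* at 29.6 and 24.2, against 27 and 27.3. Their values differed little between the crosses, and *AGL80*, which specifies the central cell from which the endosperm arises, was not called either (4.94 and 6.17 RPKM in *phe1 phe2 osd1* seeds, 2.61 and 3.77 in wt seeds). In *osd1* vs. wt the list had 18 members higher and 0 lower with a median of 2.97. The *phe1 phe2 osd1* vs. wt list had 8 members higher without wt replicate 1 and 9 without wt replicate 2, and *AGL36* was called in neither fit. Paralogs in this family are near-identical in places, so levels of single members are uncertain.

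Of 8 markers of the endosperm, 7 were tested and none was at 0 in all libraries. Of the 7, 4 were higher (57.1%, against 12.3% of all tested genes), 1 was lower (14.3%, against 12.8%) and 2 were not called. The markers *AGL62* and *MINI3* passed the filter only through *phe1 phe2 osd1*, which fixed their direction. The set is not separate from the lists, since it holds *AGL62*, and 5 of the 7 tested markers are genes near PHE1 binding. Their summed level was 73.0 and 94.0 RPKM in *phe1 phe2 osd1* seeds, 111 and 75.1 in *osd1* seeds, and 41.5 and 46.6 in wt seeds. Without *AGL62* it was 61.2 and 66.6 RPKM in *phe1 phe2 osd1* seeds, 90.5 and 64.7 in *osd1* seeds, and 41.4 and 46.5 in wt seeds. In the fits without a wt library or without *phe1 phe2 osd1* replicate 2, 2 markers were higher, and without a wt library 0 were lower. Their part in the rise of type I MADS-box genes was not tested.

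**Figure D2:**
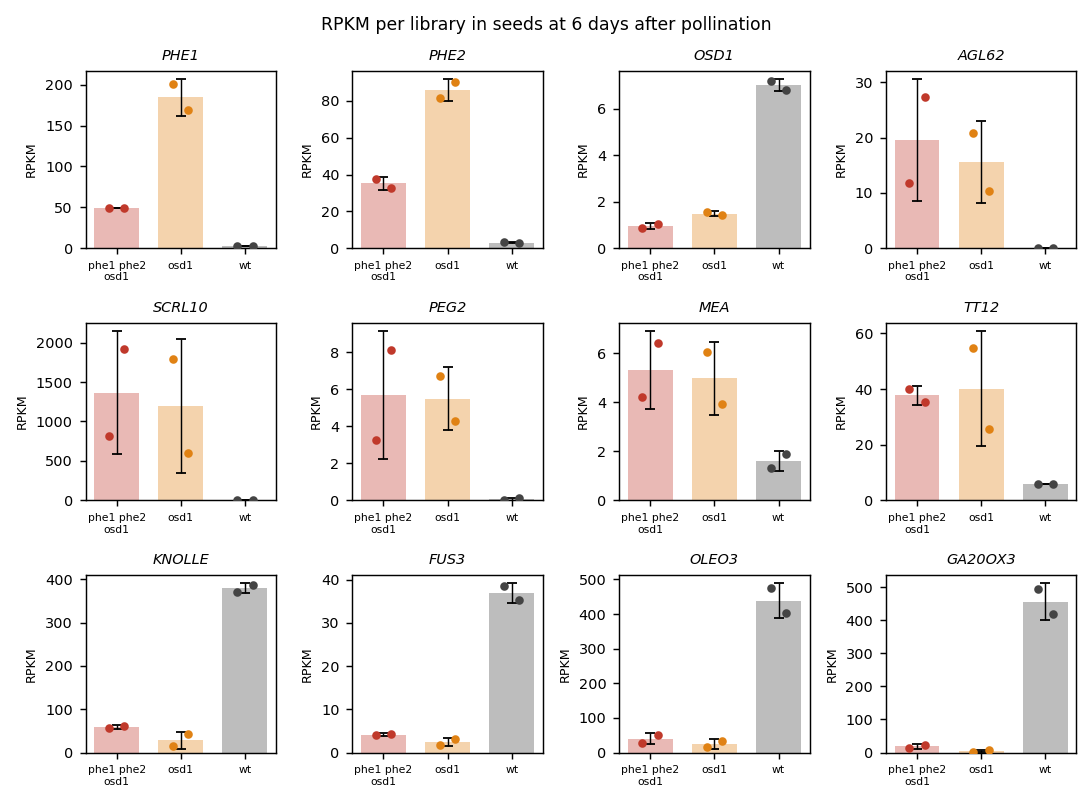
RPKM (vertical axis, own linear scale in each panel) of 12 genes in *phe1 phe2 osd1*, *osd1* and wt seeds at 6 DAP; points are libraries, bars the mean and error bars the SD of 2 libraries. *PHE1* and *PHE2* lay between the *osd1* and wt levels in *phe1 phe2 osd1* seeds, whereas *AGL62* and *SCRL10* were near 0 in wt seeds only and *GA20OX3*, *FUS3*, *OLEO3* and *KNOLLE* were high in wt seeds only.

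Imprinted genes are expressed mainly from 1 parental allele in the endosperm. Of 144 tested paternally expressed genes (PEGs), 66 were higher (45.8%), 15 lower (10.4%) and 63 not called, with a median log2 fold change of 0.65. Maternally expressed genes (MEGs) had 23 of 114 higher (20.2%), 14 lower (12.3%) and 77 not called, with a median of 0.23. Over all tested genes 12.3% were higher and 12.8% lower, so the shares of lower PEGs and MEGs were near that of all genes. The PEGs passed the filter only through *phe1 phe2 osd1* in 20 cases and only through wt in 1, the MEGs in 2 and 4 cases. PEGs with a PHE1 binding region, 41 in all, had 27 members higher and 3 lower with a median of 1.89, and the other 103 PEGs had 39 higher and 12 lower with a median of 0.31. The difference between these lists was not tested.

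*SMAP2* (AT3G24280), a PEG for a small acidic protein, was at 164 and 203 RPKM in *phe1 phe2 osd1* seeds, 129 and 155 in *osd1* seeds, and 5.24 and 6.41 in wt seeds. The triploid libraries were close to each other and far from wt, and the log2 fold change was 4.86 (SE 0.17, limma adjusted p = 0.000167). *AT1G35183*, a PEG with a RING zinc finger, had 9.85 and 48.7 RPKM in *phe1 phe2 osd1* seeds and was at 0 in both wt libraries. Among PEGs that fell, *FLC* (AT5G10140), the MADS-box repressor of flowering, was at 0.707 and 1.13 RPKM in *phe1 phe2 osd1* seeds, 0.694 and 0.655 in *osd1* seeds, and 8.12 and 6.80 in wt seeds. All triploid libraries were below wt, with a log2 fold change of -2.50 (SE 0.25, limma adjusted p = 0.00165).

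The highest MEG was *FWA* (AT4G25530), a homeodomain gene imprinted in the endosperm, at 31.7 and 21.7 RPKM in *phe1 phe2 osd1* seeds, 40.3 and 27.2 in *osd1* seeds, and 1.55 and 1.23 in wt seeds. Wt was far below both triploid crosses (log2 fold change 3.83, SE 0.27, limma adjusted p = 0.000591). The MEG *LBD16* (AT2G42430), a LOB-domain gene known for lateral root formation, was at 0.997 and 1.14 RPKM in *phe1 phe2 osd1* seeds, 0.309 and 1.53 in *osd1* seeds, and 12.8 and 11.1 in wt seeds, with a log2 fold change of -2.98. Leaving out wt replicate 1 gave 36 PEGs higher and 2 lower and 5 MEGs higher and 3 lower, and leaving out wt replicate 2 gave 40 and 5 PEGs and 10 and 6 MEGs. *AT1G35183* and *LBD16* lost their calls without either wt library. Without *phe1 phe2 osd1* replicate 1, 12 MEGs were higher, without its replicate 2, 6 PEGs and 9 MEGs were lower, and without either *osd1* library 22 MEGs were lower.

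The list of 9 genes tied to the triploid block and its chromatin had 7 members higher (77.8%, against 12.3% of all tested genes). In this list 0 were lower (against 12.8%) and 2 not called, with a median log2 fold change of 1.31. The count and median rest in part on the filter, since *SUVH7* and *PEG2* passed it only through *phe1 phe2 osd1* and could not be lower there. *ADM*, *SUVH7*, *PEG2* and *NRPD1A* are PEGs whose loss from the pollen side allows triploid seeds to survive. *ADM* (AT4G11940) had 6.41 and 8.68 RPKM in *phe1 phe2 osd1* seeds, 6.86 and 3.15 in *osd1* seeds, and 0.540 and 0.498 in wt seeds. *SUVH7* (AT1G17770), a putative histone methyltransferase, had 4.87 and 4.71 RPKM in *phe1 phe2 osd1* seeds, 6.28 and 3.6 in *osd1* seeds, and 0 and 0.272 in wt seeds. Both genes overlapped between the triploid crosses and lay above wt, with log2 fold changes vs. wt of 2.97 and 3.09. *PEG2* (AT1G49290) had 3.25 and 8.13 RPKM in *phe1 phe2 osd1* seeds, against 0 and 0.111 in wt seeds, with a log2 fold change of 3.36 (SE 0.44, limma adjusted p = 0.00378). *PKR2*, a chromatin remodeler, was 2.15 log2 units higher. *AHL10* and *SUVH9*, whose proteins act together with ADM, were 1.03 and 0.95 log2 units higher, and the homeodomain PEG *HDG3* was 1.31 higher. *NRPD1A*, for the largest subunit of RNA polymerase IV, was at 7.63 and 6.02 RPKM in *phe1 phe2 osd1* seeds, against 8.20 and 7.2 in wt seeds, and *VIM5* at 33.4 and 39.6, against 34.7 and 33.3. These genes were not called, and their crosses overlapped. The list had 1 member higher without wt replicate 1, *SUVH7*, and 3 without wt replicate 2, *ADM*, *SUVH7* and *PEG2*. *HDG3* was also not called without *phe1 phe2 osd1* replicate 1, and *SUVH9* was not called when either *phe1 phe2 osd1* library was left out.

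Genes for endosperm growth and breakdown moved in both directions. Of 9 tested members, 3 were higher (33.3%, against 12.3% of all tested genes), 4 lower (44.4%, against 12.8%) and 2 not called. Their median log2 fold change was 0.55. The genes that rose were *AGL62*, described above, *CKX2* and *MINI3*. Of these, *AGL62* and *MINI3* passed the filter only through *phe1 phe2 osd1*, which fixed their direction. *CKX2* (AT2G19500), which degrades cytokinin and acts in the HAIKU pathway of endosperm growth, was at 82.6 and 50.5 RPKM in *phe1 phe2 osd1* seeds, 191 and 65.4 in *osd1* seeds, and 2.06 and 1.66 in wt seeds. The triploid crosses overlapped far above wt, with a log2 fold change of 4.79 (SE 0.50, limma adjusted p = 0.00182). *MINI3* (AT1G55600), the WRKY factor of the same pathway, had 1.94 and 7.83 RPKM in *phe1 phe2 osd1* seeds, 9.41 and 4.1 in *osd1* seeds, and 0 and 0.0387 in wt seeds, with a log2 fold change of 3.12. *IKU2*, its receptor kinase partner, had 0.251 and 0.206 RPKM in *phe1 phe2 osd1* seeds, against 0.0709 and 0.131 in wt seeds, and with *SHB1* fell below the filter. *IKU1* and the auxin synthesis gene *YUC10* were not called. *YUC10* (AT1G48910) was at 7.24 and 23.2 RPKM in *phe1 phe2 osd1* seeds, 22.6 and 11.9 in *osd1* seeds, and 4.31 and 5.80 in wt seeds, without overlap but with a limma adjusted p of 0.141.

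The genes of this list that fell were *ICE1*, *ZOU*, *ALE1* and *EDE1*. *ICE1* (AT3G26744), which forms a dimer with ZHOUPI to break down the endosperm, was at 99.7 and 78.7 RPKM in *phe1 phe2 osd1* seeds, 60.6 and 84.5 in *osd1* seeds, and 436 and 373 in wt seeds. *ZOU* itself (AT1G49770) had 13.1 and 5.76 RPKM in *phe1 phe2 osd1* seeds, 9.41 and 14.2 in *osd1* seeds, and 32.1 and 35.5 in wt seeds. *ALE1* (AT1G62340), the subtilase acting in formation of the embryo cuticle, had 11.4 and 5.67 RPKM in *phe1 phe2 osd1* seeds, 16.4 and 8.89 in *osd1* seeds, and 43.0 and 31.8 in wt seeds. In all 3 genes every triploid library lay below wt, with log2 fold changes in *phe1 phe2 osd1* vs. wt of -2.18 for *ICE1*, -1.89 for *ZOU* and -2.13 for *ALE1*. *EDE1*, for a microtubule-associated protein of the endosperm, was 1.00 log2 unit lower. With either wt library left out the list had 2 members higher and 1 lower, and with *phe1 phe2 osd1* replicate 2 left out 2 and 2. Of the members called, only *AGL62*, *CKX2* and *ICE1* kept their calls in all 6 fits that left out a library. *MINI3* (limma adjusted p = 0.137 without wt replicate 1) and *ALE1* lost their calls without either wt library and without *phe1 phe2 osd1* replicate 2, *ZOU* without either wt library, and *EDE1* without each of the 4 libraries compared.

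Polycomb group genes repress transcription through H3K27 methylation. Of the 8 in the list, 1 was higher (12.5%, near the 12.3% of all tested genes), 3 were lower (37.5%, against 12.8%) and 4 were not called. Their median log2 fold change was -0.22. *MEA* (AT1G02580), the maternally expressed methyltransferase of the seed complex, had 4.2 and 6.43 RPKM in *phe1 phe2 osd1* seeds, 6.03 and 3.91 in *osd1* seeds, and 1.31 and 1.90 in wt seeds. Triploid libraries of both crosses lay above wt, with a log2 fold change of 1.45 (SE 0.31, limma adjusted p = 0.0205). Its partner *FIE* (AT3G20740) was at 26.8 and 24.7 RPKM in *phe1 phe2 osd1* seeds, 24.7 and 23.5 in *osd1* seeds, and 47.0 and 45.4 in wt seeds, and was 0.83 log2 units lower. The methyltransferase genes *CLF* and *SWN* were 0.92 and 0.56 log2 units lower. *FIS2*, the seed-specific subunit, had 2.81 and 1.52 RPKM in *phe1 phe2 osd1* seeds, against 2.06 and 1.88 in wt seeds, which overlapped. *MSI1*, *EMF2* and *VRN2* were not called. None of the 8 was called by limma without wt replicate 1, where *MEA* had an adjusted p of 0.161, and 1 was called, lower, without wt replicate 2 and without *phe1 phe2 osd1* replicate 2.

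Binding of PHE1 had been mapped by ChIP-seq of a GFP fusion in siliques at 2 DAP, with 2 replicates. The peaks of both replicates shared 2510 regions, and 1813 genes had the centre of a region within 1500 bp upstream to 500 bp downstream of their start and were taken as targets. Of the 1536 targets tested, 503 (32.7%) were higher, 201 (13.1%) lower and 832 not called, with a median log2 fold change of 0.28. Other genes were higher in 1941 of 18256 cases (10.6%) and lower in 2325 (12.7%), with a median of -0.01. Targets made up 7.76% of tested genes, 20.6% of genes called higher, 7.96% of genes called lower and 5.61% of the rest. Among genes above 4 log2 units, 113 of 230 (49.1%) were targets, and the share was 31.3% between 2 and 4, 14.5% between 1 and 2, and 5.88% between -1 and 1. Below 0 it was 6.81% between -2 and -1, 5.14% between -4 and -2, and 4.76% below -4. In *osd1* vs. wt, 537 targets were higher and 205 lower, with a median of 0.32.

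Targets that passed the filter only through *phe1 phe2 osd1* numbered 176, against 15 only through wt, and the cross through which they passed fixed their direction. Leaving out wt replicate 1 gave 210 targets higher and 39 lower, and leaving out wt replicate 2 gave 262 and 67. Without *phe1 phe2 osd1* replicate 2, 108 were lower. Siliques at 2 DAP and seeds at 6 DAP differ in tissue and age, and no binding was measured in these seeds.

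**Figure D3:**
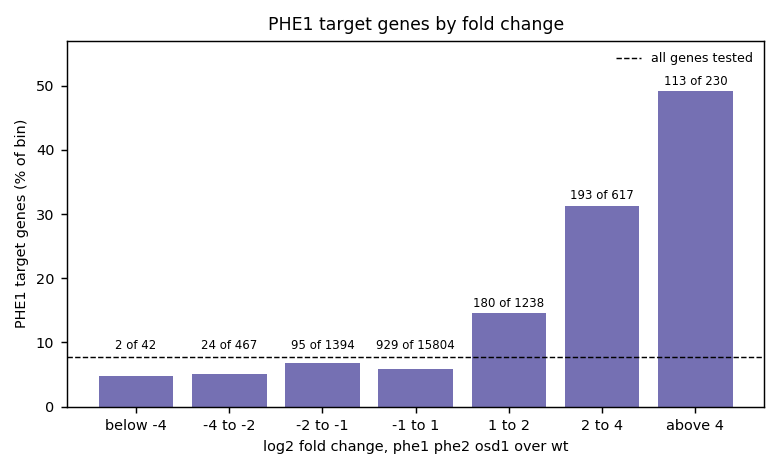
Percent of tested genes that are PHE1 targets (vertical axis) in bins of the log2 fold change in *phe1 phe2 osd1* vs. wt seeds (horizontal axis); numbers are targets of genes in each bin, and the dashed line is the 7.76% of all tested genes. The share was 4.76% below -4 and 49.1% above 4.

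MADS-box proteins bind CArG-boxes, A/T-rich cores between CC and GG. Exact CArG-boxes in the regions of named targets are printed to show where such a match lies beside genes that rose and genes that fell. Each line gives 30 bases of RefSeq TAIR10.1 sequence on the strand of the gene, with the CArG-box in capitals. Genes that rose come first, and *WRI1*, *LCR27*, *LCR39* and *DTA2* fell. *LCR39* has a pair of boxes in its region.
AGL23, chr1:24281165-24281194, forward strand: tgtatctaagCCTTAAATGGtaatttataa
AT1G35183, chr1:12882149-12882178, forward strand: tatagaaattCCATAATAGGtgttcaaaaa
HDG3, chr2:13740570-13740599, forward strand: attaaatataCCAAAAATGGttaaaaatat
AT3G02670, chr3:574763-574792, reverse strand: caacattaacCCAAAATTGGttgtcatgtc
WRI1, chr3:20114066-20114095, forward strand: acactgaagaCCTAATTTGGtataatacag
LCR27, chr4:14434740-14434769, reverse strand: tttagattgaCCAATAAAGGaaaaacccca
LCR39, chr3:8267382-8267411, reverse strand: ataattagtaCCAAAATTGGttaccatcaa
LCR39, chr3:8267453-8267482, reverse strand: actttagttaCCATATTTGGtctcaaatct
DTA2, chr2:18865973-18866002, forward strand: cataggaataCCAAATATGGatgaccaaat

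The centre of the match lay at -158 bp from the annotated start of *AGL23*, -491 of *AT1G35183*, -294 of *HDG3*, -75 of *AT3G02670*, -408 of *WRI1*, -230 of *LCR27*, -811 and -882 of *LCR39*, and 64 bp downstream of the start of *DTA2*, inside the annotated gene. The values of these genes show that such a match was present on both sides. *AT3G02670*, annotated as a glycine-rich protein, was at 83.0 and 379.9 RPKM in *phe1 phe2 osd1* seeds and at 1.16 and 0.401 in wt seeds. *WRI1* (AT3G54320), the AP2 factor that turns on oil synthesis, was at 37.3 and 38.3 RPKM in *phe1 phe2 osd1* seeds and at 200.3 and 180.1 in wt seeds. *DTA2* (AT2G45830), named as a target of the MADS-box factor AGL15, was at 4.26 and 6.77 RPKM in *phe1 phe2 osd1* seeds and at 92.5 and 77.6 in wt seeds. Exact CArG-boxes, searched on both strands, were in 289 (11.5%) of the 2510 shared regions, in 10.3% of those near genes called higher and in 11.2% of those near genes called lower. In promoters from 250 bp upstream to 50 bp downstream of the start they were in 3.29% of tested genes, 2.80% of those called higher and 3.37% of those called lower. A match is a sequence and not a measured site. *WRI1* had a limma adjusted p of 0.0621 when wt replicate 1 was left out.

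Single hormone genes differed strongly between the crosses, whereas the share of lower genes in the list was near that of all tested genes. Of 31 tested genes for synthesis and inactivation of auxin, gibberellin and cytokinin, 8 were higher (25.8%, against 12.3% of all tested genes), 5 lower (16.1%, against 12.8%) and 18 not called, with a median log2 fold change of 0.33, and 7 passed the filter only through *phe1 phe2 osd1* and 4 only through wt. Gibberellin 20-oxidases, which make precursors of active gibberellin, moved in opposite directions. *GA20OX5* (AT1G44090) was at 27 and 64.0 RPKM in *phe1 phe2 osd1* seeds, 40.9 and 29.8 in *osd1* seeds, and 0.212 and 0.293 in wt seeds. *GA20OX3* (AT5G07200) was at 13.8 and 23.3 RPKM in *phe1 phe2 osd1* seeds, 1.49 and 6.70 in *osd1* seeds, and 495 and 418 in wt seeds. Neither gene overlapped with wt, and the log2 fold changes in *phe1 phe2 osd1* vs. wt were 5.81 (SE 0.40, limma adjusted p = 0.000576) for *GA20OX5* and -4.63 (SE 0.58, limma adjusted p = 0.00341) for *GA20OX3*. *GA20OX2* was at 29.4 and 26.4 RPKM in *phe1 phe2 osd1* seeds and at 54.2 and 67.2 in wt seeds, and it fell too. *GA2OX3* (AT2G34555), which inactivates gibberellin, had 3.92 and 3.42 RPKM in *phe1 phe2 osd1* seeds and was at 0 in both wt libraries.

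In auxin synthesis, *TAR1* (AT1G23320), an aminotransferase for tryptophan, had 4.72 and 36.9 RPKM in *phe1 phe2 osd1* seeds, 11.5 and 6.28 in *osd1* seeds, and 0 and 0.340 in wt seeds. Its replicates in *phe1 phe2 osd1* differed widely while both exceeded wt (log2 fold change 4.43, SE 0.89, limma adjusted p = 0.0163). *TAR2* and *YUC6* were 1.43 and 1.94 log2 units higher. In cytokinin metabolism, the oxidase genes *CKX2* and *CKX3* moved apart. *CKX3* (AT5G56970) was at 0.218 and 0.618 RPKM in *phe1 phe2 osd1* seeds and at 12.2 and 11.1 in wt seeds, with a log2 fold change of -3.76. The isopentenyltransferases that begin cytokinin synthesis did so as well, since *IPT8* and *IPT4* rose and were listed at 0 in both wt libraries, while *IPT6* fell and had 0.225 and 1.28 RPKM in *phe1 phe2 osd1* seeds, against 7.98 and 10.2 in wt seeds (log2 fold change -3.07). The hormone list had 4 members higher and 2 lower without wt replicate 1, and 5 and 3 without wt replicate 2. The calls of *TAR1* and *IPT6* were lost without either wt library, those of *TAR2* and *IPT4* without each of the 4 libraries compared, those of *GA20OX3* (limma adjusted p = 0.0621) and *YUC6* without wt replicate 1, and that of *GA20OX2* without wt replicate 2.

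**Figure D4:**
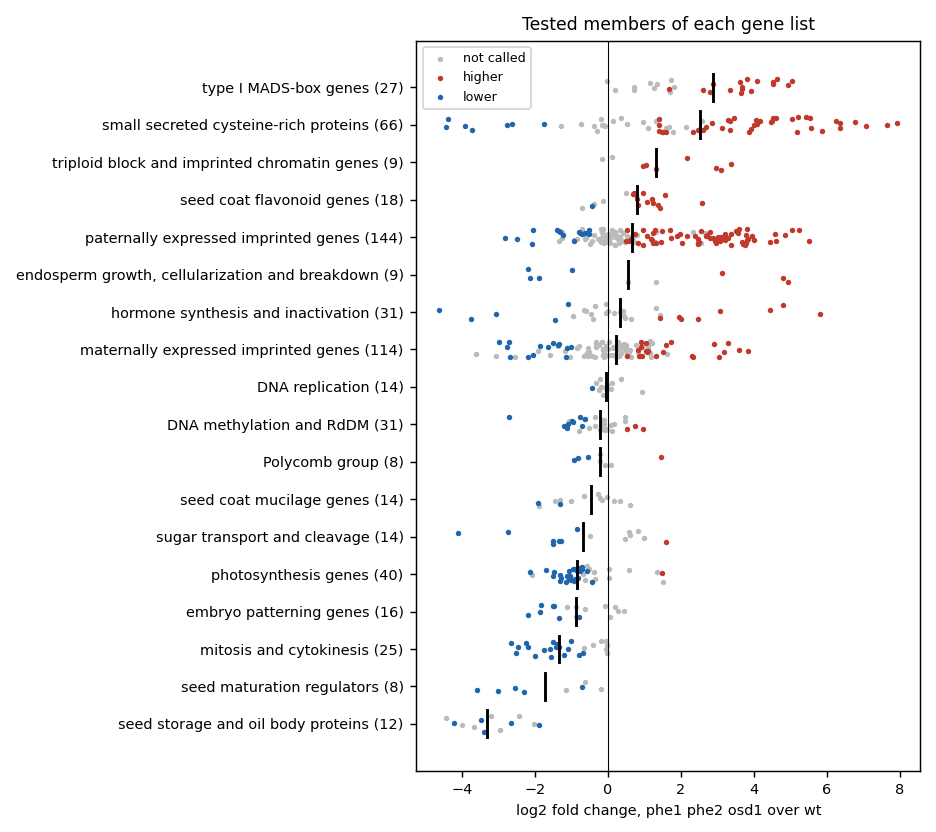
Log2 fold change in *phe1 phe2 osd1* vs. wt seeds (horizontal axis) of the tested members of each list (rows, 1 point per gene), coloured by call, with the median as a black tick. Medians ran from 2.88 for type I MADS-box genes to -3.31 for storage and oil body proteins.

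Most genes for mitosis were lower, whereas most genes for DNA replication, like most tested genes, were not called. Of 25 genes for mitosis and cytokinesis, 18 were lower (72.0%, against 12.8% of all tested genes), 0 higher (against 12.3%) and 7 not called. Their median log2 fold change was -1.34. Of 14 replication genes, 1 was lower (7.14%, against 12.8%) and 13 were not called, with a median of -0.04. *KNOLLE* (AT1G08560), the syntaxin that fuses vesicles into the cell plate, was at 56.2 and 62.1 RPKM in *phe1 phe2 osd1* seeds, 14 and 41.8 in *osd1* seeds, and 371.5 and 387 in wt seeds. *HIK* (AT1G18370), the kinesin of the cytokinetic phragmoplast, was at 6.47 and 5.88 RPKM in *phe1 phe2 osd1* seeds, 3.76 and 5.21 in *osd1* seeds, and 35.8 and 37.1 in wt seeds. *PLE* (AT5G51600), a MAP65 protein of the same structure, was at 4.41 and 4.16 RPKM in *phe1 phe2 osd1* seeds, 4.17 and 4.04 in *osd1* seeds, and 26.8 and 27.7 in wt seeds. In all 3 genes the triploid libraries lay far below wt, and the log2 fold change in *phe1 phe2 osd1* vs. wt was -2.67 (SE 0.45, limma adjusted p = 0.00934) for *KNOLLE*, -2.47 (SE 0.18, limma adjusted p = 0.000689) for *HIK* and -2.54 (SE 0.15, limma adjusted p = 0.000401) for *PLE*.

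Among cyclins, *CYCB2;2* was 2.26 log2 units lower and *CYCB1;1* 1.21 lower, and the mitotic kinase gene *CDKB2;1* was 1.6 lower. *CDKB1;1*, at 28.0 and 23.5 RPKM in *phe1 phe2 osd1* seeds and at 30.1 and 29.2 in wt seeds, was not called. The replicative helicase genes *MCM2* to *MCM7* had log2 fold changes of -0.34 to 0.11, and none was called. *TSO2*, for the small subunit of ribonucleotide reductase, was the 1 replication gene that fell, by 0.45 on the log2 scale, and was not called in any of the fits that left out 1 of the 4 libraries compared. The lists were not tested against each other. The mitosis list had 6 members lower without wt replicate 1 and 9 without wt replicate 2. *KNOLLE* was not called without each of the 4 libraries compared (limma adjusted p = 0.0992 without wt replicate 1), and *CYCB1;1* was not called without wt replicate 1.

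Genes for seed maturation and storage were lower or not called. Of 8 maturation regulators, 5 were lower (62.5%, against 12.8% of all tested genes) and 3 not called, with a median log2 fold change of -1.73. Of 12 storage and oil body protein genes, 5 were lower (41.7%) and 7 not called, with a median of -3.31. *FUS3* (AT3G26790), a B3 factor that drives maturation, was at 3.95 and 4.36 RPKM in *phe1 phe2 osd1* seeds, 1.81 and 3.12 in *osd1* seeds, and 38.4 and 35.2 in wt seeds. *ABI3* (AT3G24650), of the same family and acting in the abscisic acid response, was at 4.77 and 7.48 RPKM in *phe1 phe2 osd1* seeds, 6.39 and 4.17 in *osd1* seeds, and 39.6 and 35 in wt seeds. Both were far below wt in every triploid library, with log2 fold changes of -3.0 (SE 0.24, limma adjusted p = 0.000852) for *FUS3* and -2.54 (SE 0.27, limma adjusted p = 0.00204) for *ABI3*. *L1L* (AT5G47670), a subunit of nuclear factor Y related to LEC1, was 3.59 log2 units lower. *LEC1* itself, at 99.8 and 74.4 RPKM in *phe1 phe2 osd1* seeds, 47.2 and 110.2 in *osd1* seeds, and 195 and 189.6 in wt seeds, did not overlap with wt but was not called.

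The 12S globulin gene *CRA1* (AT5G44120), for a major storage protein, was at 1.26 and 2.17 RPKM in *phe1 phe2 osd1* seeds, 0.349 and 0.812 in *osd1* seeds, and 29.2 and 54.5 in wt seeds. *OLEO3* (AT5G51210), for an oleosin on oil bodies, was at 29.0 and 51.5 RPKM in *phe1 phe2 osd1* seeds, 15.1 and 34.3 in *osd1* seeds, and 474 and 404 in wt seeds. Both genes were without overlap, with log2 fold changes of -4.22 (SE 0.40, limma adjusted p = 0.00133) for *CRA1* and -3.48 (SE 0.42, limma adjusted p = 0.00296) for *OLEO3*. Storage genes that missed the threshold differed between wt replicates. *CRC* had 0 RPKM in both *phe1 phe2 osd1* libraries and 0.614 and 35.8 in wt, and *SESA3* had 0.302 and 1.28 RPKM in *phe1 phe2 osd1* seeds and 5.19 and 116 in wt seeds, so that wt replicate 2 held most of their signal. All 12 storage genes had both *phe1 phe2 osd1* libraries below both wt libraries, as did 34.9% of all tested genes, and 3 of the 12 passed the filter only through wt. Of the 12, 41.7% were called lower, against 12.8% of all tested genes. The storage list had 2 members lower without wt replicate 2 and 3 without either *phe1 phe2 osd1* library, and the maturation regulators had 2 lower without wt replicate 1 and 3 without wt replicate 2. *L1L* lost its call without either wt library and *OLEO3* without wt replicate 1 (limma adjusted p = 0.0577).

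Embryo patterning genes had 7 of 16 members lower (43.8%, against 12.8% of all tested genes), 0 higher (against 12.3%) and 9 not called. Their median log2 fold change was -0.88. The counts and median rest in part on the filter, which 3 members passed only through wt, so that they could not be higher. *WOX9* (AT2G33880), a homeobox gene of the early embryo, was at 3.45 and 3.62 RPKM in *phe1 phe2 osd1* seeds, 2.68 and 2.51 in *osd1* seeds, and 19.1 and 17.1 in wt seeds. *CUC1* (AT3G15170), which separates the cotyledons, was at 2.86 and 3.32 RPKM in *phe1 phe2 osd1* seeds, 4.26 and 3.64 in *osd1* seeds, and 13.9 and 11.3 in wt seeds. All triploid libraries were below wt for both genes, and the log2 fold change in *phe1 phe2 osd1* vs. wt was -2.20 for *WOX9* and -1.86 for *CUC1*. *PDF1*, an epidermal gene, fell by 1.5 on the log2 scale, whereas the epidermal regulators *ATML1* and *PDF2* were not called, *PDF2* at 26.5 and 27 RPKM in *phe1 phe2 osd1* seeds and at 27 and 24.8 in wt seeds. The 8 embryo markers summed to 110.4 and 84.9 RPKM in *phe1 phe2 osd1* seeds, 60.1 and 120.2 in *osd1* seeds, and 236 and 225 in wt seeds. The set is not separate from the lists, since it holds *WOX9* of the patterning list and *LEC1* of the maturation list. Its sum is therefore not an independent measure of embryo content. Of these markers 2 were lower, none was at 0 in all libraries and 2 passed the filter only through wt. Their part in the fall of mitosis, maturation, storage and patterning genes was not tested. The patterning list had 3 members lower without either wt library and without *phe1 phe2 osd1* replicate 2, and 4 embryo markers were lower without either *osd1* library.

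Photosynthesis genes, which a green embryo and the seed coat express, were lower in 26 of 40 cases (65.0%, against 12.8% of all tested genes). In this list 1 gene was higher (2.5%, against 12.3%) and 13 were not called, with a median log2 fold change of -0.85. *PSBQ-2* (AT4G05180), for a subunit of photosystem II, was at 71.4 and 69.8 RPKM in *phe1 phe2 osd1* seeds, 81.8 and 78.9 in *osd1* seeds, and 197 and 198 in wt seeds. The replicates were close and wt stood apart, with a log2 fold change of -1.48 (SE 0.10, limma adjusted p = 0.000492). *LHCB1.1* (AT1G29920), a light-harvesting protein with near-identical copies, was at 222 and 184 RPKM in *phe1 phe2 osd1* seeds, 376 and 169 in *osd1* seeds, and 816 and 975 in wt seeds. The 1 gene that was higher was *RBCS3B* (AT5G38410), a Rubisco small subunit with near-identical copies, at 102.1 and 83.9 RPKM in *phe1 phe2 osd1* seeds, 200.2 and 89.1 in *osd1* seeds, and 27.6 and 39.3 in wt seeds. *RBCS1A*, the most abundant copy, was at 1457 and 1276 RPKM in *phe1 phe2 osd1* seeds and at 1760 and 1826 in wt seeds, which did not pass the test. The list had 2 members lower without wt replicate 1, 3 without wt replicate 2, 16 without *phe1 phe2 osd1* replicate 1 and 11 without its replicate 2, and 3 members were higher without either *osd1* library. *RBCS3B* was not called without each of the 4 libraries compared, and *LHCB1.1* without either wt library and *phe1 phe2 osd1* replicate 2.

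Sugar transport and cleavage genes had 7 of 14 members lower (50.0%, against 12.8% of all tested genes), 1 higher (7.14%, against 12.3%) and 6 not called. Their median log2 fold change was -0.68. *SWEET11* (AT3G48740), which exports sucrose towards the embryo, was at 3.94 and 12.1 RPKM in *phe1 phe2 osd1* seeds, 3.73 and 9.72 in *osd1* seeds, and 161 and 104 in wt seeds. Every triploid library was below wt, with a log2 fold change of -4.12 (SE 0.60, limma adjusted p = 0.00552). *SWEET15* was 1.51 log2 units lower. Sucrose synthase *SUS2* (AT5G49190) was at 1.22 and 0.850 RPKM in *phe1 phe2 osd1* seeds and at 11.2 and 8.21 in wt seeds, and vacuolar invertase *VAC-INV* at 9.85 and 10.5, against 32.4 and 27.6 in wt seeds. Cell wall invertase *CWINV4* (AT2G36190), which cleaves sucrose outside the cell, was the 1 member that was higher, at 31.6 and 31.7 RPKM in *phe1 phe2 osd1* seeds, 45.0 and 34.7 in *osd1* seeds, and 8.92 and 11.7 in wt seeds (log2 fold change 1.59, limma adjusted p = 0.00258). The list had 2 members lower without either wt library and 4 without *phe1 phe2 osd1* replicate 1, and 3 members were higher without either *osd1* library. *SWEET11* lost its call without either wt library and *SWEET15* without each of the 4 libraries compared, whereas *SUS2*, *VAC-INV* and *CWINV4* kept theirs in all 6 fits.

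Most flavonoid genes of the seed coat were higher, and most mucilage genes were not called. Of 18 genes for flavonoid synthesis, transport and regulation, 13 were higher (72.2%, against 12.3% of all tested genes), 1 was lower (5.56%, against 12.8%) and 4 were not called. Their median log2 fold change was 0.81. *TT12* (AT3G59030), which carries proanthocyanidin precursors into the vacuole, was at 40.1 and 35.2 RPKM in *phe1 phe2 osd1* seeds, 54.7 and 25.6 in *osd1* seeds, and 5.75 and 5.99 in wt seeds. *F3H* (AT3G51240), an early enzyme of the pathway, was at 227 and 269 RPKM in *phe1 phe2 osd1* seeds, 271 and 235 in *osd1* seeds, and 73.8 and 93.2 in wt seeds. Neither overlapped with wt, and log2 fold changes were 2.58 (SE 0.33, limma adjusted p = 0.00365) for *TT12* and 1.57 (SE 0.16, limma adjusted p = 0.00182) for *F3H*. *TT5*, for chalcone isomerase, and *AHA10*, for a proton pump of the vacuole, were 1.42 and 1.37 log2 units higher, and *TTG1*, the WD40 regulator, was 0.44 lower. *TT8*, *TTG2*, *TT10* and *TT15* were not called.

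Of 14 tested mucilage genes, 2 were lower (14.3%, near the 12.8% of all tested genes), 0 higher and 12 not called, with a median log2 fold change of -0.46. *MUM2*, the galactosidase that modifies mucilage pectin, was 1.33 log2 units lower and *GATL5* 1.93 lower. Replicates differed widely for others of this list, such as *PMEI6* at 80.8 and 205 RPKM in *phe1 phe2 osd1* seeds, 0.697 and 230.5 in *osd1* seeds, and 467 and 486 in wt seeds. The 8 seed coat markers are all members of the flavonoid or the mucilage list, so the set is not separate from these lists. Of the 8 markers, 4 were higher (50.0%, against 12.3% of all tested genes), 0 lower (against 12.8%) and none at 0. They summed to 657 and 786 RPKM in *phe1 phe2 osd1* seeds, 712 and 888 in *osd1* seeds, and 595 and 705 in wt seeds. The sums of *phe1 phe2 osd1* and wt thus overlapped. The flavonoid list had 1 member higher without wt replicate 1, 5 without wt replicate 2 and 6 without either *phe1 phe2 osd1* library, and *TTG1* was called in none of these. *F3H* kept its call in all 6 fits, *TT12* lost it without either wt library, and *TT5* and *AHA10* without wt replicate 1. *MUM2* and *GATL5* lost theirs without wt replicate 1 and without either *phe1 phe2 osd1* library, and *MUM2* also without wt replicate 2, whereas 6 mucilage genes were lower without either *osd1* library. Of the seed coat markers, 0 were higher without wt replicate 1 and 2 without wt replicate 2.

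Genes of DNA methylation and its small RNA pathway had 9 of 31 members lower (29.0%, against 12.8% of all tested genes), 3 higher (9.68%, against 12.3%) and 19 not called, with a median log2 fold change of -0.21. *CLSY1* (AT3G42670), which guides RNA polymerase IV to its loci, was at 3.27 and 4.36 RPKM in *phe1 phe2 osd1* seeds, 3.30 and 3.99 in *osd1* seeds, and 33.1 and 22.7 in wt seeds. It was low in all triploid libraries, with a log2 fold change of -2.70 (SE 0.25, limma adjusted p = 0.00121). *CMT2*, a CHH methyltransferase of heterochromatin, *ROS1*, a demethylase, and *RDR2*, the polymerase that makes double-stranded precursors, were 1.20, 1.13 and 1.09 log2 units lower. The argonaute gene *AGO9* was 0.74 higher, and *SUVH9* and *VIM2* 0.95 and 0.52 higher. *NRPD1A*, described above, was not called. Of the 31 members, 1 passed the filter only through wt, which fixed its direction. *CLSY1* was the 1 member lower without wt replicate 1, 4 members were lower without wt replicate 2, and none was higher without any of the 4 libraries compared.

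The 8 genes with the largest falls included enzymes of lipid and sugar metabolism. *GLIP6* (AT1G71120), of the GDSL lipases, was at 1.33 and 5.88 RPKM in *phe1 phe2 osd1* seeds, 0.418 and 0.481 in *osd1* seeds, and 205 and 143 in wt seeds. The groups were far apart, with a log2 fold change of -5.65 (SE 0.56, limma adjusted p = 0.00153) in *phe1 phe2 osd1* vs. wt. *KCS18* (AT4G34520), the *FAE1* enzyme that elongates seed oil fatty acids, was at 0.495 and 7.52 RPKM in *phe1 phe2 osd1* seeds and at 123 and 92.2 in wt seeds, and listed at 0 in both *osd1* libraries. *AT5G25330*, annotated as a glycosyltransferase of the core-2/I-branching type, was at 3.16 and 7.41 RPKM in *phe1 phe2 osd1* seeds, 0 and 0.492 in *osd1* seeds, and 162 and 124 in wt seeds. Its order was wt, *phe1 phe2 osd1*, *osd1*, without overlap between them. *AT3G61930*, *AT1G50650*, *AT1G10880*, *AT5G66985* and *AT2G14690* completed the 8 lowest, with log2 fold changes of -5.47 to -4.72. Among the 40 genes at least 4 log2 units lower, replicate 2 exceeded replicate 1 in *phe1 phe2 osd1* in 38, and their median log2 fold change was -4.50 in *phe1 phe2 osd1* vs. wt and -5.59 in *osd1* vs. wt. For the 226 highest genes the medians were 5.05 and 5.01. When wt replicate 1 was left out, limma adjusted p was 0.106 for *KCS18*, 0.067 for *AT1G50650*, 0.0513 for *AT1G10880* and 0.0579 for *AT5G66985*, and the calls of *KCS18* and *AT1G50650* were also lost without wt replicate 2.

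The test between the triploid crosses asked directly what the paternal *phe1 phe2* mutations changed under paternal excess. In *phe1 phe2 osd1* vs. *osd1*, 0 of 19792 genes (0%) were called by limma at an adjusted p under 0.05. At an unadjusted p under 0.05 the limma counts were 351 higher and 170 lower. The rank product called 875 higher and 773 lower, of which 6 were in both sets because its tests are one-sided. By chance a share of 0.05 of the 19792 genes would pass each of these tests, and none of these counts exceeds that share. *PHE1* had the smallest p, with a log2 fold change of -1.90 (SE 0.13, limma adjusted p = 0.0949), and *PHE2* was at -1.28 (SE 0.13, limma adjusted p = 0.415). Without *osd1* replicate 2, 64 genes were called, of which *PHE1* was the 1 lower gene (-2.02, SE 0.14, limma adjusted p = 0.0111), and without any other library none was.

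Genes that were called against wt and had the smallest p in this contrast are given by their values. *LBD35* (AT5G35900), a LOB-domain PHE1 target, was at 7.78 and 6.69 RPKM in *phe1 phe2 osd1* seeds, 25.4 and 17.2 in *osd1* seeds, and 0.329 and 0.912 in wt seeds, and *AT2G26865* at 2.44 and 1.85 in *phe1 phe2 osd1* seeds, 7.2 and 5.65 in *osd1* seeds and 0 in both wt libraries. Both stood between *osd1* and wt, as *PHE1* did. On the other side, *CYP76G1* (AT3G52970), a cytochrome P450, was at 2.81 and 4.80 RPKM in *phe1 phe2 osd1* seeds, 0.0665 and 0.136 in *osd1* seeds, and 107 and 86.5 in wt seeds. The aspartyl protease gene *AT4G04460* was at 27.4 and 30.2 RPKM in *phe1 phe2 osd1* seeds, 14.7 and 14.8 in *osd1* seeds, and 452 and 394 in wt seeds, and the subtilase gene *SBTI1.1* at 11.6 and 23.5 in *phe1 phe2 osd1* seeds, 1.66 and 3.38 in *osd1* seeds, and 486 and 382 in wt seeds. These genes were without overlap between any of the 3 crosses, and *phe1 phe2 osd1* lay between *osd1* and wt. All genes of this paragraph were picked for differences from both other crosses, so their separation was to be expected. How many of all genes had this order was not counted. Adjusted over all genes, none of these differences between the triploid crosses passed the threshold.

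Markers of other sources were low or mixed. The 6 pollen and sperm markers summed to 0.799 and 0.233 RPKM in *phe1 phe2 osd1* seeds, 0.552 and 0.338 in *osd1* seeds, and 1.63 and 1.45 in wt seeds, with *MGH3* and *DUO1* at 0. The 5 silique wall markers summed to 51.1 and 32.1 RPKM in *phe1 phe2 osd1* seeds, 59.6 and 38.0 in *osd1* seeds, and 41.8 and 42.7 in wt seeds, with *FIL* and *YAB3* lower among 3 tested. *YAB3* was not called without each of the 4 libraries compared, and *FIL* without wt replicate 1.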

How the data were processed

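RNA-seq libraries of 6 DAP seeds, 2 per cross, were analysed. The authors mapped reads to TAIR10 with TopHat2 2.1.0, kept 1 place per read and used GFOLD to obtain the deposited RPKM. The deposited PHE1 peak lists hold other values, the start and end of each peak, which the authors called with MACS2 2.1.1 after Bowtie 1.2.2. Each of the 6 library columns had a sample, which left 0 unused, and the table had no fold changes. H3K27me3, H3 and input samples were not analysed here.

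Genes averaging 0.5 RPKM or more in *phe1 phe2 osd1* or wt were tested with limma 3.58.1 in R 4.3.3 (eBayes with trend, 3 residual degrees of freedom) on log2(RPKM + 0.5), in 1 fit over 6 libraries, because RPKM are not counts. A rank product was coded anew in Python 3.11.15 (zeros set to 0.0001, 100 permutations) as an alternative. Tests were checked on simulated data. Depth was estimated from the spacing of low RPKM values, since 1 read is worth a fixed RPKM for a gene. At that depth, 46.6 to 49.8% of low values lay within 0.05 of a whole read, where chance gives 10%, so counts were not recovered. With 2 libraries against 2, no exact permutation test of a single gene was run.

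Peaks were intersected with bedtools 2.31.1 (overlap of at least 1 bp), and 12 chloroplast peaks were left out. Of 27206 IDs, 26719 were in the RefSeq TAIR10.1 annotation, which gave names, coordinates and sequences, and whose 5 nuclear chromosomes are those of TAIR10. List symbols without an entry were not used. Members and lists were chosen with earlier results of these data known. Genes named are *PHE1*, *PHE2* and *OSD1*, the 8 with the highest and the 8 with the lowest log2 fold change among called, non-overlapping genes with a mean of at least 5 RPKM in the higher cross, up to 4 per list and direction, all members of the endosperm growth, Polycomb and triploid block lists, and the 4 called genes with the smallest p in *phe1 phe2 osd1* vs. *osd1* in each direction. Other genes were named after their values had been seen. Alternatives covered the pseudocount, filter, scaling, libraries, trend, test, replicate number and each library left out.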

Additional observations from a re-analysis of the deposited data

How the results depend on the processing

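The genes called higher in *phe1 phe2 osd1* than wt numbered 604 to 2954 when 1 library was left out, and the genes called lower 529 to 3087, with the fewest calls without wt replicate 1. Under the other settings the counts over all genes stayed within 1.5 times those reported. They were 2526 and 2423 with a pseudocount of 0.1, 2365 and 2537 with 1, 2268 and 2448 with no filter on low values, 2267 and 2800 after quantile normalization, and 1683 and 1816 by the rank product, which shared 1241 and 1354 genes with limma. Of the 48 counts of higher or lower members of a list or marker set, the rank product changed 11 by over 1.5 times and took 5 to 0, the fit on the compared crosses changed 7, quantile normalization 3, median centring 2 and the replicate block 2, and the block took 2 others to 0, no variance trend 3 and median centring 1. Counts of 0 became larger in 1 or 2 cases under these settings, with no filter and with the higher minimum, and the pseudocounts changed none. The genes that differed between *phe1 phe2 osd1* and *osd1* numbered 0 to 64 when 1 library was left out and 1642 by the rank product. Libraries were not treated as pairs by replicate number. Deviations of same-numbered libraries correlated at 0.175 between *phe1 phe2 osd1* and *osd1*, -0.012 between *phe1 phe2 osd1* and wt, and -0.003 between *osd1* and wt. These values cannot decide whether same-numbered libraries were handled together. With the replicate number as a block 2464 genes were higher and 2507 lower. Among named genes that were tested, *EMF2*, *VRN2*, *MSI1*, *FIS2*, *NRPD1A*, *VIM5*, *IKU1* and *YUC10* were not called and had no call to lose. Of these, *IKU1* and *YUC10* gained a call in some fits that left out 1 library. With median centring 1 named gene gained a call, and 1 did in the fit on the compared crosses. Of the 123 named genes tested, no call changed direction under any alternative. The call was lost in 65 of them without wt replicate 1, in 41 without wt replicate 2, in 24 without *phe1 phe2 osd1* replicate 2 and in 17 without its replicate 1, in 7 without the variance trend and in 4 with the block. Depth was only estimated, so that no counting error stands beside single values, and genes at 0 may lie below detection.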
